A study of Mus musculus with 6 samples.

Results

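The transcripts described here are those of the mouse mitochondrial genome in dorsal root ganglia, the clusters of sensory neuron cell bodies and their glia beside the spinal cord. They were taken as every gene symbol that starts with mt-, which gave 37 of the 55809 symbols in the count tables: 13 protein genes, 2 ribosomal RNAs and 22 transfer RNAs. The ganglia came from 8-week-old C57BL6J offspring in 2 groups, with no transgene or deletion named for either. The prenatal stress offspring were born to dams that had been held in tubes under a 200 W lamp in 3 daily sessions of 30 min, from E13 to E18 per the protocol and E13.5 to E18.5 per the series design, and the control offspring to dams left undisturbed. Both sexes were used. Each group had 3 libraries, each titled as a pool of 3 mice where the series design counts 9 mice per group and the protocol 3, and the labels give no litter or sex for a pool, so every p-value measures the spread between these pools. Libraries were made from RNA bound to poly-T beads, which bears on every class below.

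Mitochondrial DNA is a small circle transcribed from both strands into long RNAs that are cut at the tRNAs lying between the genes. The protein genes encode membrane subunits of the respiratory chain: NADH dehydrogenase (complex I, mt-Nd), the bc1 complex (complex III, mt-Cytb), cytochrome c oxidase (complex IV, mt-Co) and ATP synthase (complex V, mt-Atp). All but mt-Nd6 are read from the heavy-strand promoters and carry a short poly-A tail after cutting, which in some genes supplies the missing letters of the stop codon. The 2 rRNAs build the mitochondrial ribosome and have very short tails, and mt-Nd6 and the mature tRNAs are known for lacking one. Neurons depend on this system for the ATP that drives their ion pumps.

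The 3′ ends of the genes are shown first because they are what poly-A selection acts on. In 3 protein genes the annotated RNA stops at a lone T, shown as a capital, and in the first pair below it is followed directly by the first bases of the next tRNA. The end of mt-Nd6, which lies on the other strand, has a complete stop codon in capitals. Sequences and positions are those of GENCODE M21 on GRCm38, written 5′ to 3′ on the strand of the gene.
mt-Co3 into mt-Tg (chrM:9373-9408, + strand): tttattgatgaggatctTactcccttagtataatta
mt-Cytb into mt-Tt (chrM:15271-15306, + strand): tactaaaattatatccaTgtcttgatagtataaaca
mt-Nd4 (chrM:11509-11544, + strand): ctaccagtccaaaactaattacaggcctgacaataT
mt-Nd6 (chrM:13552-13587, − strand): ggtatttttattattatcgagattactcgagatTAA

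The 4 tRNA genes with enough counts to be tested are shown whole, with the anticodon in capitals, because each is far shorter than the fragments that were kept for sequencing. The first pair below lies end to end on opposite strands downstream of mt-Cytb.
mt-Tt, tRNA for threonine (chrM:15289-15355, + strand): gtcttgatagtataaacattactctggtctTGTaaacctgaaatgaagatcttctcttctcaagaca
mt-Tp, tRNA for proline (chrM:15356-15422, − strand): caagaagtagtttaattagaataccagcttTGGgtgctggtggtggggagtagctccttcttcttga
mt-Tw, tRNA for tryptophan (chrM:4950-5016, + strand): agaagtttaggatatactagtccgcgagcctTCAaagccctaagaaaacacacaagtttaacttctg
mt-Tq, tRNA for glutamine (chrM:3772-3842, − strand): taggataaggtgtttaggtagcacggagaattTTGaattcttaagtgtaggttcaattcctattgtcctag

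The libraries held 51.7 to 87.4 M gene counts each, and sensory neuron markers were present in all of them, with 15 of 15 above 0 and a summed level of 14266 to 15289 CPM (gene counts scaled to a common library size with TMM factors, as are all levels below). Control pool 3 stood apart before any mitochondrial result was considered. Its 12 skeletal muscle markers, all above 0, summed to 2778 CPM against 77.6 and 101 CPM in the other control pools and 96.4 to 119 CPM in the stress pools. Muscle is rich in mitochondria, so the mt- share, its classes, the tested genes and the subunit medians are given with and without this pool. Markers of other tissues varied between pools too. Summed central nervous system markers were highest in stress pool 2, at 441 CPM. They stood at 173 to 317 CPM in controls and at 190 and 205 CPM in stress pools 1 and 3. Erythroid, neutrophil and marrow markers ran from 137 CPM in stress pool 1 to 1014 CPM in stress pool 3. In bulk tissue, fewer cells of a type and less RNA per cell cannot be told apart.

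Mitochondrial transcripts made up about 2% of all gene counts, and the share was lower in every stress pool than in any control pool. The mt- genes took 2.15, 2.09 and 2.36% of gene counts in control pools 1 to 3 and 2.06, 1.91 and 2.05% in stress pools 1 to 3. Control pool 3 was the highest and stress pool 2 the lowest, and the groups did not overlap. The means were 2.2 ± 0.14% and 2.01 ± 0.0821% (SD, n = 3 pools each), a log2 ratio of -0.13, with a two-sided exact permutation p of 0.1, the smallest that 3 pools against 3 allow. Without control pool 3 the control mean was 2.12%, the log2 ratio -0.08 and the exact p 0.2. Leaving out stress pool 2 instead gave a log2 ratio of -0.095.

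**Figure D1:**
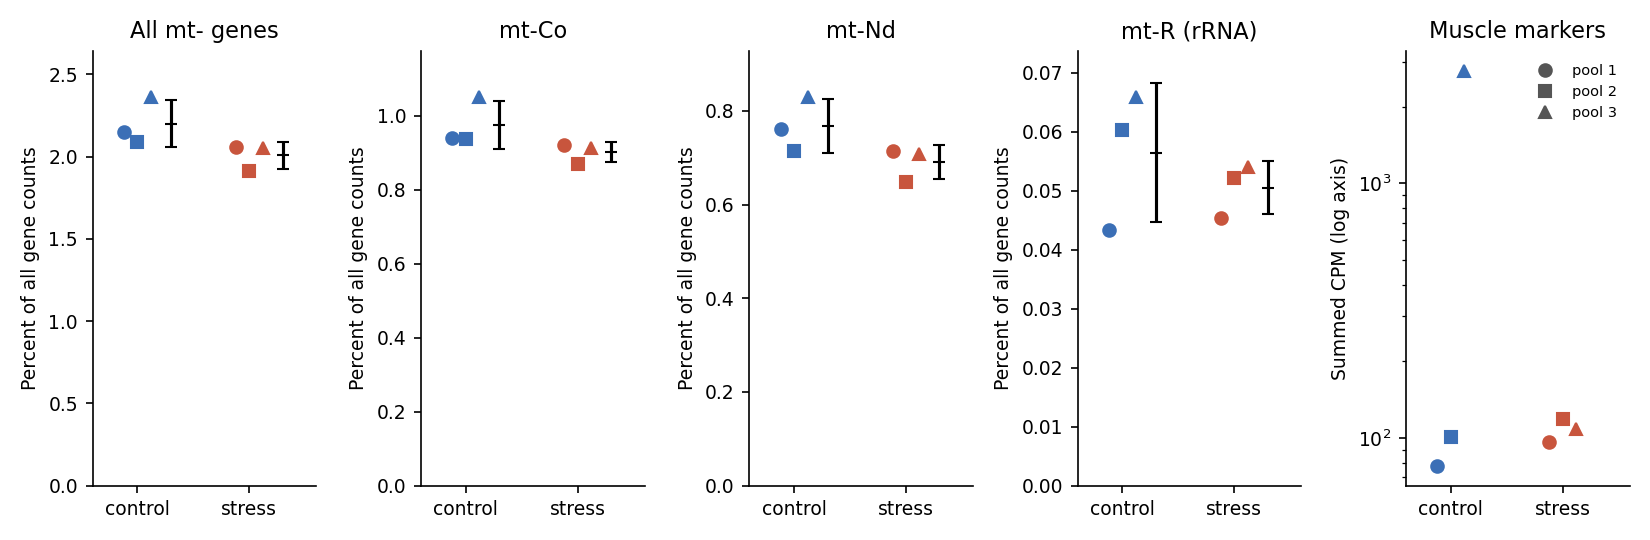
Percent of all gene counts in each pool for all mt- genes, the cytochrome c oxidase genes (mt-Co), the NADH dehydrogenase genes (mt-Nd) and the rRNAs, with mean ± SD beside the points, and the summed CPM of 12 skeletal muscle markers on a log axis. Control pool 3 had the highest mt- share (2.36%) and also the highest muscle marker sum (2778 CPM).

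Other measures separated the groups along with the mt- share. The summed level of 10 satellite glia markers, none at 0, was 3131 to 3365 CPM in controls and 2786 to 3003 CPM in stress pools, and that of the 15 sensory neuron markers was 14555 to 15289 and 14266 to 14542 CPM. The neuron markers did not move as a group: 8 of the 15 had positive log2 fold changes, with a median of 0.02, and 0 passed the edgeR test. Reads that aligned to more than 1 place made up 7.38 to 7.7% of control files and 7.05 to 7.37% of stress files. Those that could belong to more than 1 gene made up 1.67 to 1.69% and 1.63 to 1.66%. Reads in no annotated gene overlapped between groups, at 6.32 to 6.61% and 6.59 to 7.21%. The part of any of these in the lower mt- share was not tested.

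The cytochrome c oxidase genes and the tRNAs followed the same split as the whole, while the other classes overlapped between groups. The mt-Co genes, the catalytic core of complex IV, took 0.939, 0.937 and 1.05% of gene counts in controls and 0.92, 0.87 and 0.914% in stress pools. The mt-Nd genes took 0.762, 0.714 and 0.829% against 0.714, 0.649 and 0.708%, and mt-Cytb 0.4, 0.38 and 0.411% against 0.383, 0.341 and 0.37%. Control pool 2 lay at or below the highest stress pool for both of these. The exact permutation p was 0.1 for mt-Co and for the tRNAs and 0.2 for mt-Nd and mt-Cytb, and the smallest value adjusted over the 6 classes was 0.3. Without control pool 3 the log2 ratio went from -0.11 to -0.058 for mt-Co and from -0.33 to -0.198 for the tRNAs, each with an exact p of 0.2. For mt-Nd it went from -0.15 to -0.097, for mt-Cytb from -0.12 to -0.098 and for the rRNAs from -0.14 to -0.019.

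The makeup of the mitochondrial counts themselves differed by less than 1 percentage point between groups in every class, though mt-Atp and the tRNAs held too little to differ by more. Of all mt- counts, mt-Co genes held 44.3 ± 0.526% in controls and 44.9 ± 0.493% in stress pools (SD, n = 3 pools each), mt-Nd genes 34.9 ± 0.736% and 34.3 ± 0.4%, and mt-Cytb 18.1 ± 0.603% and 18.1 ± 0.365%. The rRNAs held 2.56 ± 0.475% and 2.52 ± 0.282%. For mt-Atp it was 0.0861 ± 0.00837% and 0.0951 ± 0.00865% (log2 ratio 0.14). For the tRNAs it was 0.0167 ± 0.00172% and 0.0146 ± 0.000886% (log2 ratio -0.20). In relative terms these 2 classes differed most. The groups overlapped for all 6 classes, with exact permutation p from 0.2 to 1. Between same-numbered pools, however, mt-Nd was lower and mt-Co and mt-Atp were higher in the stress pool of all 3 pairs, with an exact sign-flip p of 0.25, the smallest that 3 pairs allow. Nearly all mt-Co counts were those of mt-Co1 (3916383 of 3934231). Most mt-Atp counts were those of mt-Atp6 (4958 of 7897), which has a nuclear copy described below. Without genes copied over at least 50% of their length, the mt-Atp log2 ratio went from 0.144 to 0.033 (exact permutation p = 0.9). The ratio of mt-Co to mt-Nd counts was 1.27 ± 0.0406 in controls and 1.31 ± 0.0298 in stress pools (exact p = 0.3, adjusted over 5 ratios 0.75), and it too was higher in the stress pool of all 3 pairs.

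Among single genes, none passed the test between groups. Of the 37 members, 25 had a count in some pool and 19 passed the low-count filter. With edgeR's quasi-likelihood test and Benjamini-Hochberg adjustment, 0 of these 19 had an adjusted p under 0.05, where 0.129% of the 20146 tested genes did (0.0844% higher and 0.0447% lower in stress pools), and the smallest adjusted p was 0.366. At an unadjusted p under 0.05 there were 2 members, both lower in stress pools, where 11.1% of all tested genes reached it and 5.11% were lower. DESeq2's Wald test called 1 of the 16 members to which it gave an adjusted p, where it called 2.2% of the 15004 such genes. The log2 fold change was negative for 16 of 19 members, where 47.7% of all tested genes had a negative value. The median was -0.11 over the members and 0.01 over all genes tested. Without control pool 3 it was negative for 13 of 19, with a median of -0.07 and 0 members past the test.

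**Figure D2:**
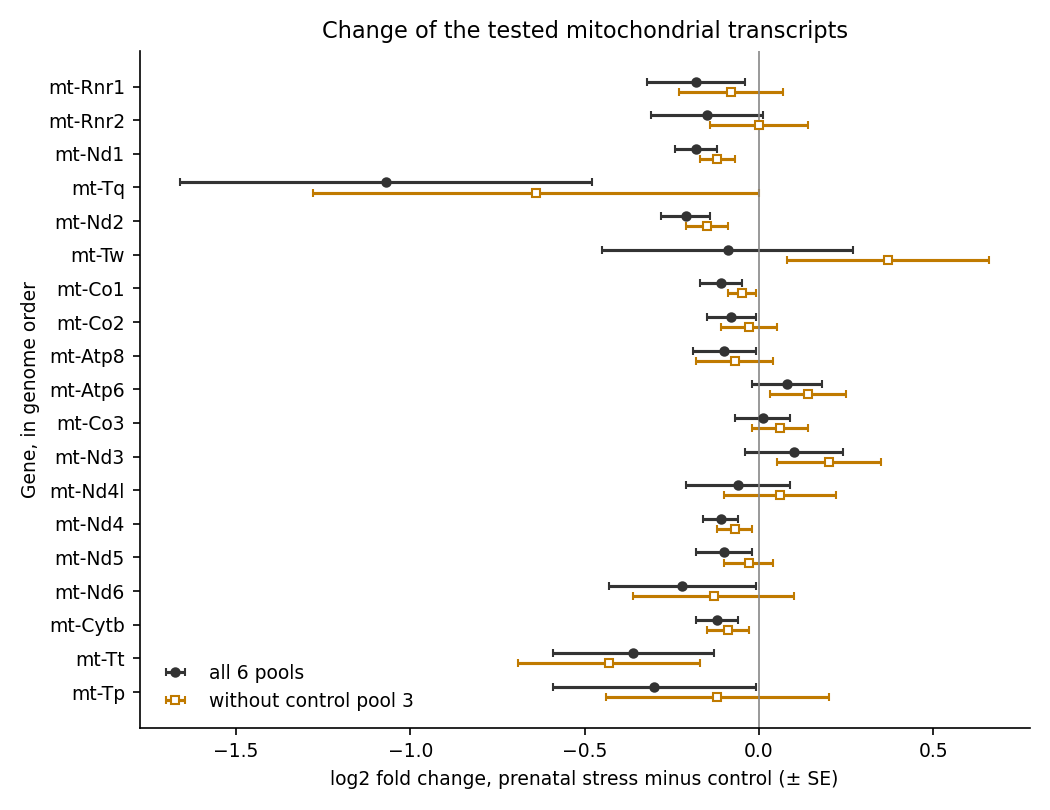
Log2 fold change of prenatal stress minus control with its standard error for the 19 tested mitochondrial genes, in genome order, from all 6 pools (filled circles) and without control pool 3 (open squares). mt-Nd1 and mt-Nd2 lie left of 0 in both (-0.18 and -0.21 with all pools, -0.12 and -0.15 without control pool 3).

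The smallest p-values belonged to neighbouring complex I genes near the start of the heavy-strand transcript, while mt-Tq, mt-Tt, mt-Tp and mt-Nd6 had more negative fold changes with larger errors. mt-Nd2 (chrM:3914-4951), a membrane subunit of the proton pump, stood at 1589, 1559 and 1768 CPM in controls and 1481, 1308 and 1460 CPM in stress pools. Every stress pool was below every control pool. Its log2 fold change was -0.21 ± 0.07 SE (edgeR adjusted p = 0.366). It was the member called by DESeq2's Wald test (adjusted p = 0.0439), and over its 14 alternatives the adjusted p ran from 0.0439 to 0.634.
mt-Nd1 (chrM:2751-3707), which lies at the joint of the membrane arm and the matrix arm of complex I, stood at 2435, 2298 and 2685 CPM in controls and 2257, 2084 and 2187 CPM in stress pools. These did not overlap either, though control pool 2 and stress pool 1 were close. The log2 fold change was -0.18 ± 0.06 (edgeR adjusted p = 0.378).
Without control pool 3 the values were -0.15 ± 0.06 for mt-Nd2 (edgeR adjusted p = 0.556) and -0.12 ± 0.05 for mt-Nd1 (edgeR adjusted p = 0.562).

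The other abundant messengers had smaller differences in the same direction. mt-Co1 (chrM:5328-6872), the catalytic subunit of cytochrome c oxidase, stood at 9295, 9338 and 10465 CPM in controls and 9176, 8651 and 9111 CPM in stress pools. Its groups were apart by little, and without control pool 3 its log2 fold change went from -0.11 ± 0.06 to -0.05 ± 0.04. mt-Nd4, another membrane subunit of complex I, stood at 1208, 1194 and 1297 CPM against 1183, 1068 and 1173 CPM. Its groups were also apart, at -0.11 ± 0.05 (edgeR adjusted p = 0.483).
mt-Cytb (chrM:14145-15288), a haem-bearing subunit of complex III, stood at 3977, 3802 and 4121 CPM against 3831, 3407 and 3703 CPM. Control pool 2 was below stress pool 1 there. Its log2 fold change was -0.12 ± 0.06 (edgeR adjusted p = 0.471). mt-Nd5, the most distal membrane subunit of complex I, stood at 2296, 2060 and 2515 CPM against 2191, 1987 and 2224 CPM, and its groups overlapped. Its log2 fold change went from -0.10 to -0.03 without control pool 3, that of mt-Nd4 to -0.07 and that of mt-Cytb to -0.09.
In all, mt-Co1, mt-Nd1, mt-Nd2 and mt-Nd4 separated the groups, each lower in stress pools. That is 4 of 19 members, where 8.76% of all tested genes were lower without overlap. The same 4 genes were apart without control pool 3, where 13.5% of all tested genes were.

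These 6 genes held 96.6 to 97.5% of all mt- counts in every pool, and the other 7 protein genes were far scarcer. The order of all 13 by CPM per kb of gene was the same in the 6 pools. From the highest, the mean over 6 pools in CPM per kb was 6045 for mt-Co1, 3328 for mt-Cytb, 2429 for mt-Nd1, 1472 for mt-Nd2, 1213 for mt-Nd5 and 862 for mt-Nd4. It was 67.8 for mt-Nd6, 34.6 for mt-Atp8, 30.9 for mt-Co2, 27.7 for mt-Co3, 17.5 for mt-Atp6, 11.5 for mt-Nd3 and 8.89 for mt-Nd4l. Among neighbours in this order, the ranges over pools overlapped for mt-Nd2 and mt-Nd5, mt-Atp8 and mt-Co2, mt-Co2 and mt-Co3, and mt-Nd3 and mt-Nd4l, although the order within each pool was kept.

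**Figure D3:**
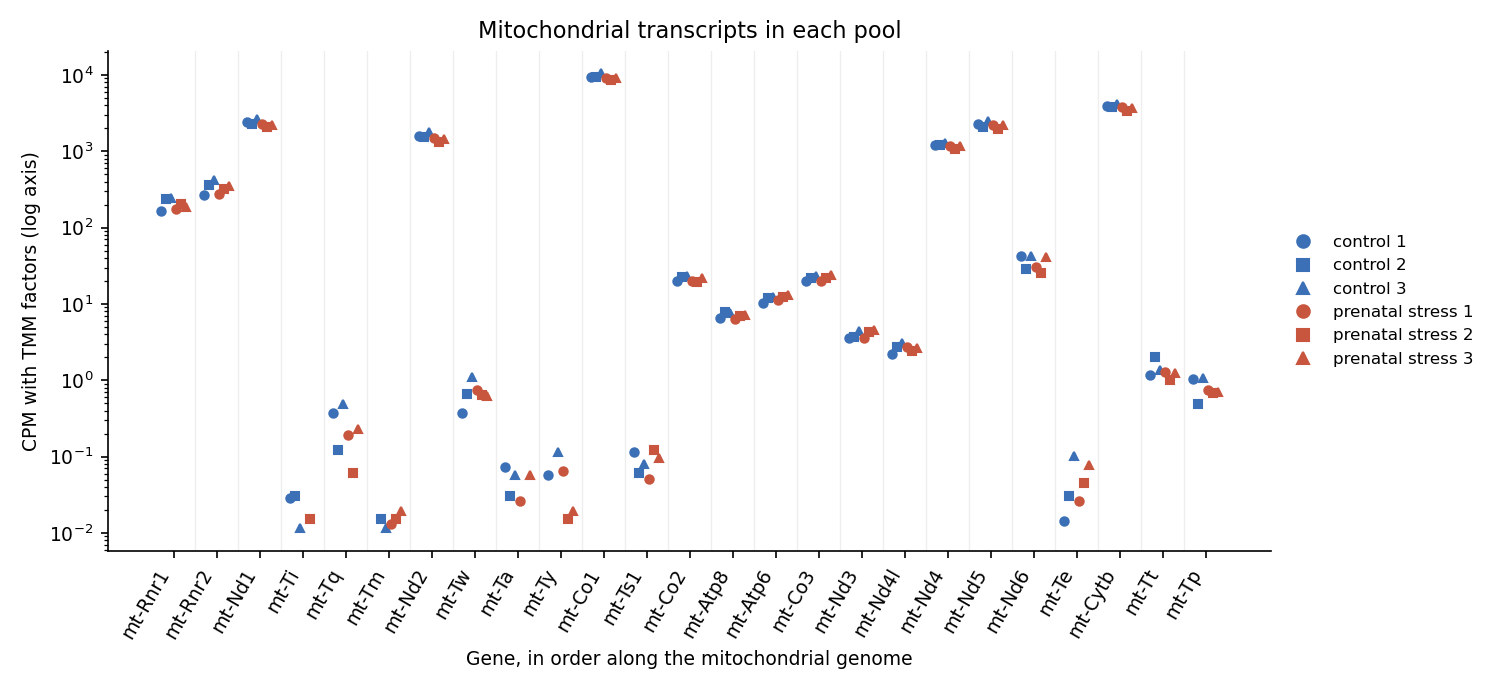
CPM on a log axis of the 25 mitochondrial genes with a count, in genome order, with 1 point per pool; a pool at 0 counts has no point. mt-Co1 leads in all pools (8651 to 10465 CPM), and the protein genes from mt-Co2 to mt-Nd4l lie between 2.22 and 23.7 CPM.

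The low values fell on the genes that have near-identical copies in nuclear DNA. On chromosome 1, a row of 7 annotated pseudogenes between chr1:24611535 and chr1:24616197 repeats the stretch from the end of mt-Co1 to the first part of mt-Nd4. The match was exact over 681 bases for mt-Co2 (Gm28661), 678 for mt-Atp6 (Gm10925), 783 for mt-Co3 (Gm28437), 294 for mt-Nd4l (Gm10222) and 876 for mt-Nd4 (Gm28439). For mt-Nd3 the copy Gm28438 differed at 1 of 345 bases, T3C counted from the gene's first base, and the first 36 bases of both are shown with that base as a capital.
mt-Nd3 (chrM:9459-9494, + strand): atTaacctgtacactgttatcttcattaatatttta
Gm28438 (chr1:24613084-24613119, − strand): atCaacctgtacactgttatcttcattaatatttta
The 5 genes copied over 99 to 99.9% of their length at 99% identity or more stood at 8.89 to 30.9 CPM per kb. The 4 heavy-strand genes with no such copy stood at 1213 to 3328 CPM per kb, so mt-Nd5, the lowest of these, was 39.3 times the highest of the copied genes. Genes copied in part lay between or beyond these, with mt-Co1 copied over 31.3% of its length and mt-Nd4 over 63.6%. Counted per kb of sequence outside the copy, mt-Nd4 stood at 2365 CPM. mt-Atp8, at 34.6 CPM per kb, has an annotated match over 21.1% of its length only, and its place in the chromosome 1 row falls in the gap from Gm10925 to Gm28661, whose sequence was not analysed here.

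**Figure D4:**
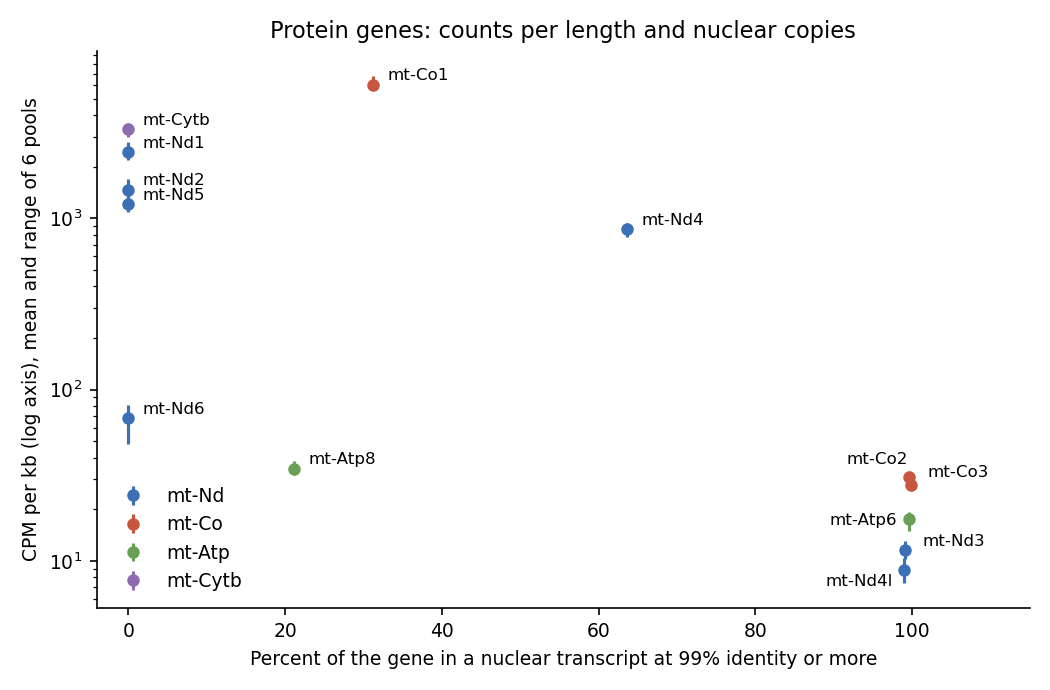
CPM per kb of the 13 mitochondrial protein genes on a log axis (mean of 6 pools, bars from the lowest to the highest pool) against the percent of each gene found in a nuclear transcript at 99% identity or more. The 5 genes at 99% or more lie at 8.89 to 30.9 CPM per kb and the 4 heavy-strand genes at 0% lie at 1213 to 3328.

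The count files put reads that align to more than 1 place in a row of their own, with no gene. The levels of mt-Co2, mt-Atp6, mt-Co3, mt-Nd3 and mt-Nd4l are therefore counts of the reads placed at 1 site only, and the amount of their messengers cannot be read from them. Their nuclear copies drew counts of the same order: Gm10925 had 1484 to 2777 counts per pool, 2.01 to 2.66 times those of mt-Atp6, and Gm28661 0.899 to 1.02 times those of mt-Co2. Which of the copies these reads came from cannot be told apart by the counts. Between groups, mt-Co3 stood at 20, 21.7 and 23.4 CPM in controls and 20.2, 21.6 and 23.7 CPM in stress pools, and mt-Atp6 at 10.2, 12.1 and 12.5 against 11.2, 12.5 and 13.1 CPM. Both pairs of groups overlapped. The log2 fold changes were 0.01 ± 0.08 for mt-Co3, 0.08 ± 0.10 for mt-Atp6, 0.10 ± 0.14 for mt-Nd3, -0.06 ± 0.15 for mt-Nd4l and -0.08 ± 0.07 for mt-Co2. The median was 0.01 over these 5 genes, against -0.15 over the 4 heavy-strand genes with no such copy. Leaving all genes with a copy over at least 50% of their length out of the mt- share left its log2 ratio at -0.13. These were mt-Nd4, with 5.49 to 5.72% of mt- counts, and the 5 genes above, with at most 0.115% each. The ratio therefore had little room to move. Reads that aligned to more than 1 place were in no share, so this cannot show what part the copies had.

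The rRNAs were captured at a low level and varied between control pools more than the abundant messengers did. mt-Rnr1 (chrM:70-1024), the RNA of the small ribosomal subunit, stood at 163, 236 and 241 CPM in controls and 174, 203 and 189 CPM in stress pools. mt-Rnr2 (chrM:1094-2675), the RNA of the large subunit, stood at 267, 367 and 419 CPM in controls and 280, 318 and 352 CPM in stress pools. The first pool of each group was the lowest for both, and the groups overlapped. The log2 fold changes were -0.18 ± 0.14 (edgeR adjusted p = 0.693) and -0.15 ± 0.16 (edgeR adjusted p = 0.781), and without control pool 3 they were -0.08 and -0.00. With each pool left out in turn, mt-Rnr1 ran from -0.34 (without control pool 1) to -0.08 and mt-Rnr2 from -0.31 (without control pool 1) to -0.00. Per kb both rRNAs stood near 210 CPM, and mt-Co1 was 28.6 times mt-Rnr2, which in total RNA of mammalian cells is the more abundant. The 2 rRNAs moved together over the 6 pools (Pearson r = 0.91, exact permutation p = 0.0167, adjusted 0.05; Spearman rho = 0.94, exact p = 0.0167, adjusted 0.025), taking the pools as unpaired, and r was 0.76 without the 2 pools farthest from the median. Their sum and that of the protein genes had r = 0.48 and rho = 0.26 (exact permutation p = 0.318 and 0.658).

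On the light strand, mt-Nd6 was scarce beside the abundant messengers. mt-Nd6, the only protein gene on that strand, stood at 42.2, 28.7 and 42.5 CPM in controls and 30.9, 25.1 and 41.6 CPM in stress pools. From highest to lowest, its order of pools was the same as that of mt-Nd5 on the heavy strand. Control pools 1 and 3 and stress pool 3 were high and the other 3 pools low, so the groups overlapped. The log2 fold change was -0.22 ± 0.21 (edgeR adjusted p = 0.744), and it ran from -0.44 without stress pool 3 to -0.06 without stress pool 2. Per kb, mt-Nd5 on the heavy strand was 17.9 times mt-Nd6. The 14 heavy-strand tRNA genes summed to 1.57, 2.71 and 2.49 CPM in controls and 2.05, 1.67 and 1.88 CPM in stress pools. The 8 light-strand tRNA genes summed to 1.67, 0.739 and 1.9 CPM in controls and 1.1, 0.925 and 1.18 CPM in stress pools. Over the 6 pools this sum and mt-Nd6 had r = 0.83 (exact permutation p = 0.0458, adjusted over 3 relations 0.0687) and rho = 0.94 (exact p = 0.0167, adjusted 0.025), and r was 0.68 without the 2 pools farthest from the median of mt-Nd6. These 3 relations were chosen after the values were seen. No source used here gives the strand setting of the read counter, so RNA of 1 strand opposite a gene of the other may be counted in it.

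Of the 22 tRNA genes, 12 had 0 counts in all 6 pools and 10 had some. For reads assigned to a tRNA gene, 0 counts allow a level of up to 0.034 to 0.058 CPM. Reads that could belong to more than 1 gene were in a row of their own, 1.63 to 1.69% of a file. A 0 therefore sets no limit on RNA that spans a tRNA and its neighbour. What part the layout of the genes has in this split was not tested. A tRNA count came from RNA in which the tRNA sequence was still part of a longer molecule or was captured in spite of its length, and these cannot be told apart. The most counted was mt-Tt, which follows mt-Cytb, with 81, 130 and 120 counts in controls and 100, 66 and 64 in stress pools. mt-Tp, on the other strand beside it, had 72, 32 and 92 against 57, 45 and 36 counts. mt-Tw, which follows mt-Nd2, had 26, 43 and 95 against 58, 42 and 32 counts.
Control pool 3 was the highest pool for mt-Tp, mt-Tw and mt-Tq in CPM. mt-Tq, between mt-Nd1 and mt-Nd2 on the light strand, had 26, 8 and 43 counts against 15, 4 and 12. Its log2 fold change of -1.07 ± 0.59 was the most negative of the members (edgeR adjusted p = 0.541), with overlapping groups and few counts. For mt-Tw the sign turned from -0.09 ± 0.36 to 0.37 ± 0.29 without control pool 3. The other 6 tRNA genes with a count had 5 to 36 counts over all pools and were not tested.
Light-strand genes made up 6 of the 10 tRNA genes with a count and 2 of the 12 at 0. Together the tRNAs stood at 3.24, 3.45 and 4.39 CPM in controls and 3.15, 2.59 and 3.06 CPM in stress pools, apart but by little. The fold changes of mt-Tq, mt-Tp and mt-Tt were -0.64, -0.12 and -0.43 without control pool 3.

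Lists of nuclear genes that serve the mitochondrial genome had medians near 0, while single genes in them lay farther out. Of 10 genes of mitochondrial transcription, such as the polymerase and its initiation factors, 0 passed the edgeR test in either direction (background 0.129%) and 6 had positive values, with a median log2 fold change of 0.01 beside 0.01 over all genes tested. For Tfam, which packs mitochondrial DNA and starts its transcription, the levels were 23.7, 24.2 and 23.7 CPM in controls and 24.7, 25.1 and 23.5 CPM in stress pools. The medians were 0.03 for 13 genes of mitochondrial DNA replication, -0.04 for 19 genes of RNA cutting and modification, -0.04 for 16 genes of RNA stability, polyadenylation and decay, -0.00 for 19 aminoacyl-tRNA synthetases and 0.04 for 10 regulators of biogenesis. In each of these 5 lists 0 genes passed the test and 1 had an unadjusted p under 0.05, where 11.1% of all tested genes had such a p. Among the synthetases that one was Lars2, which loads leucine onto its tRNAs, at 90.8, 121 and 89.4 CPM in controls and 67.1, 73.5 and 77.9 CPM in stress pools (log2 fold change -0.46 ± 0.12, edgeR adjusted p = 0.29). Its groups did not overlap. The summed level of the synthetases was also apart, at 795 to 821 CPM in controls and 764 to 780 CPM in stress pools. That sum includes Lars2, whose mean was 100 CPM in controls and 72.9 CPM in stress pools, so it is not a separate result. The sum of the 13 replication genes was apart in the other direction, at 325 to 329 CPM in controls and 332 to 338 CPM in stress pools. Ears2, which loads glutamate, stood at 0.21 ± 0.11 (edgeR adjusted p = 0.52), and Ppargc1b, a coactivator of biogenesis, at 0.33 ± 0.16 (edgeR adjusted p = 0.495).

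Nuclear-encoded partners of the same complexes had negative medians, as did the mitochondrial genes, and the sizes differed. In complex I the median log2 fold change was -0.11 over 7 mitochondrial genes and -0.06 over 37 nuclear genes. Of the mitochondrial genes, mt-Nd3 and mt-Nd4l are limited by their copies, and mt-Nd4 is copied in part. Of the nuclear genes, 33 were negative, where 47.7% of all tested genes were. The acyl carrier protein gene Ndufab1 was the 1 that passed the edgeR test, and it rose, where 0.0844% of all tested genes did. In complex III, mt-Cytb stood at -0.12 and the 9 nuclear genes had a median of -0.06, with 0 past the edgeR test. In complex IV the medians were -0.08 over 3 mitochondrial genes, of which mt-Co2 and mt-Co3 are limited by their copies, and -0.07 over 15 nuclear genes. Among the latter Cox8a (0.66 ± 0.04, edgeR adjusted p = 0.00365) and Cox6a1 (0.37 ± 0.04, edgeR adjusted p = 0.0175) rose, while mt-Co1, which sits in the same enzyme, stood at -0.11 ± 0.06. With each pool left out in turn, Cox8a passed the edgeR test in 6 of 6 fits (adjusted p 0.00711 to 0.0444), Cox6a1 only without control pool 3 (0.0388 to 0.174) and Ndufab1 only without control pool 3 or stress pool 2 (0.0243 to 0.137). Cox6a1 also missed it after the GC content and length correction (adjusted p = 0.121), and Ndufab1 has an annotated pseudogene, Ndufab1-ps, that could share its reads. In complex V the median was -0.01 over 2 mitochondrial genes, of which mt-Atp6 is limited by its copy, and -0.08 over 15 nuclear genes, with 0 past the edgeR test. Without control pool 3 the mitochondrial medians were -0.07, -0.09, -0.03 and 0.03 for complexes I, III, IV and V, and the nuclear ones -0.06, -0.05, -0.05 and -0.07. With all 6 pools, 10 of 37 nuclear genes in complex I and 4 of 9 in III had an unadjusted edgeR p under 0.05. In complex IV it was 11 of 15 and in V 10 of 15, in either direction, where 11.1% of all tested genes had such a p. Summed nuclear levels were apart for complex I (2467 to 2549 CPM in controls, 2380 to 2433 in stress pools) and III (946 to 995 and 911 to 944). The sums of complexes IV and V overlapped. No test of a difference between the genomes was made.

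**Figure D5:**
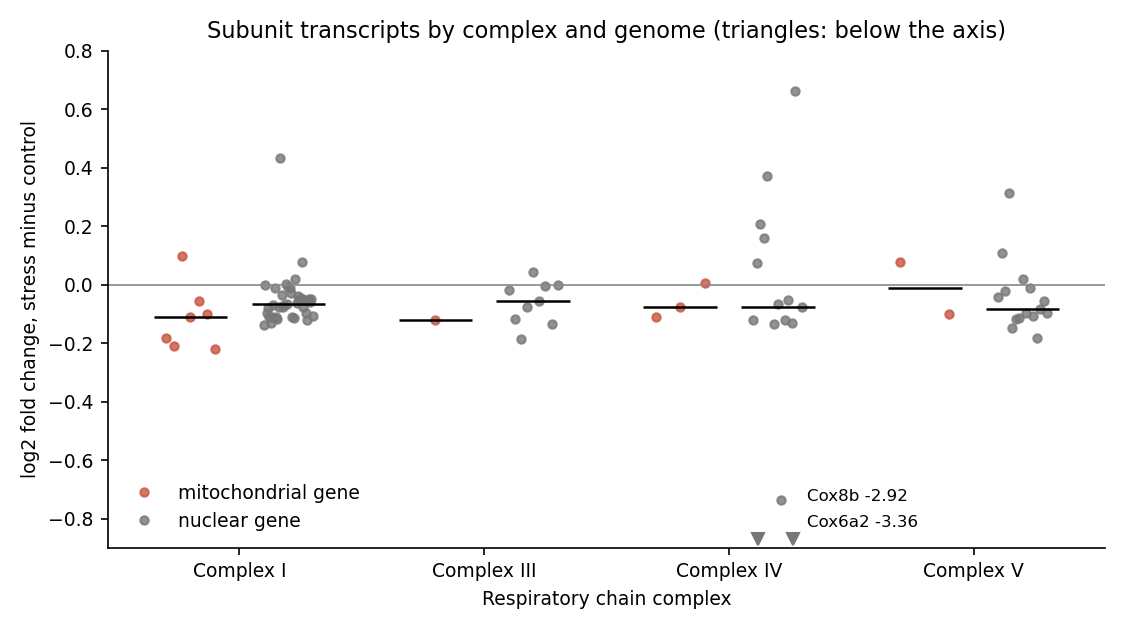
Log2 fold change of prenatal stress minus control for subunit genes of each respiratory chain complex, mitochondrial genes on the left and nuclear genes on the right of each pair, with a bar at the median. Most points lie just under 0 in both genomes; Cox8a (0.66) and Ndufab1 (0.43) stand above, and Cox6a2 (-3.36) and Cox8b (-2.92), isoforms of striated muscle, lie below the axis and are drawn as triangles.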

How the data were processed

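Bulk RNA of 6 pools was poly-A selected and sequenced as stranded paired-end libraries, per the labels' protocols. Each pool has 1 deposited table of whole-number read counts by gene symbol, which the authors did not normalize as far as the values show. FastQC, STAR 2.4 and HTSeq 0.9.1 and the builds GRCm39 and mm10 are named in the submitters' processing notes, with no roles. Rows for reads assigned to no gene held 15.3 to 16.2% of a table and entered neither the library sizes nor the tests.
The group comparison ran in R 4.3.3 with edgeR 4.0.16 on these counts (TMM factors, filterByExpr with a count minimum of 10, quasi-likelihood F test, Benjamini-Hochberg over 20146 genes, threshold 0.05) and, as an alternative, with DESeq2 1.42.0. The edgeR step was tested on simulated data. Shares and ratios were compared with two-sided exact permutation tests. A gene's standard error was its log2 fold change divided by the square root of F. CPM per kb used GENCODE M21 gene lengths. Copies were found with BLAST 2.17.0 (mitochondrial genes against nuclear transcripts, at least 30 bases and 95% identity on the same strand).
Depth was 51.7 to 87.4 M gene counts per pool, so the number of pools limits the precision of abundant genes. Limits for 0 counts are 3 counts and cover counting error only.
Same-numbered pools of both groups correlated in their deviations from the group means (0.34, 0.22 and 0.13). Differently numbered pools ran from -0.3 to 0.12, so the third same-numbered value was barely above these. The numbers were treated as pairing the pools in the alternative with a replicate block. What a number stands for is not given, so this pairing rests on the same counts. The alternatives tried were other scalings, no low-count filter, the block, a GC content and length correction (100% of tested members had values), each pool left out, and other denominators and member sets for the shares. Named genes were all members with a count and up to 3 genes of smallest p per list, of which few are printed. The members and lists were chosen with earlier results of these data known.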

Additional observations from a re-analysis of the deposited data

How the results depend on the processing

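With the replicate block, 0 members passed the test, the log2 ratio of the mt- share was -0.129 (exact sign-flip p = 0.25, the smallest that 3 pairs allow) and 22 genes passed in all, against 26 without it; it changed no call among the members. DESeq2's Wald test called 1 member, mt-Nd2 (-0.215, adjusted p = 0.0439), and 330 genes in all, and 49 genes passed edgeR's test without the low-count filter. Leaving out each pool gave 0 members and 2 to 14 genes in all, and a log2 ratio of the mt- share from -0.164 to -0.078, always negative, with the weakest value without control pool 3. Sign changes among single members were those of mt-Tw with the replicate block (0.008), and, over fits with a pool left out, of mt-Tw (-0.394 to 0.375), mt-Nd4l (-0.176 to 0.060), mt-Atp6 (-0.004 to 0.137) and mt-Co3 (-0.062 to 0.064). mt-Nd1 ranged from -0.24 to -0.12 and mt-Nd2 from -0.25 to -0.15 over 14 alternatives. The causes of these moves were not tested. Counting depth limits the tRNAs most, with mt-Nd3 and mt-Nd4l next at 137 to 381 counts per pool, and the counts cannot place reads shared with the nuclear copies.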
